A study of Mus musculus with 4 samples.

Results

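Cd74, H2-Aa, H2-Ab1, H2-Eb1 and H2-DMa, genes of the major histocompatibility complex (MHC) class II pathway, were described in sorted regulatory T cells (Treg cells). They are 5 of the 22056 genes in the deposited expression tables and were chosen by name, with earlier results of these data known. Single-cell RNA was captured with a 10x Genomics 3′ v3.1 kit from live YFP+ CD4+ TCRβ+ Treg cells of C57BL/6 mice, sorted to a purity of over 95%. The 4 libraries were cervical draining lymph node (LN) cells of ICOS FC mice (genotype label "ICOS-deficient") taken on day 1 of an oxazolone challenge, LN cells of ICOS WT mice taken at the same time, spleen cells of ICOS FC mice at steady state, and spleen cells of ICOS WT mice at steady state. Each group was a single library, so no comparison has a replicate or a test: the 95% intervals given are exact Poisson intervals for levels and their ratios and Clopper-Pearson intervals for shares of cells, and they cover counting error only. The labels give neither the allele and driver behind the ICOS and YFP genotypes nor the number of mice in each library. Tissue and challenge differ together, so they cannot be told apart.

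MHC class II molecules are pairs of an alpha and a beta chain that carry peptides taken from outside the cell to the surface, where CD4+ T cells read them. The invariant chain, encoded by Cd74, fills the peptide groove of a new pair and guides it to the endosome, where proteases cut the chain down and the H2-M molecule exchanges the remnant for a peptide. B cells, dendritic cells and macrophages make all of these proteins at high level under the coactivator CIITA, whereas mouse T cells are usually regarded as making little class II of their own.

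H2-Aa (chr17:34282744-34287823, minus strand) encodes the alpha chain of the I-A molecule and H2-Ab1 (chr17:34257689-34269419, plus strand) its beta chain. H2-Eb1 (chr17:34305867-34316674, plus strand) encodes the beta chain of I-E, a molecule that C57BL/6 mice do not carry at the surface because they lack a working alpha chain gene for it. H2-DMa (chr17:34119541-34139101, plus strand) encodes the alpha chain of H2-M. Positions here and below are those of the GENCODE M21 annotation of GRCm38.

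Class II promoters carry an X box, bound by the RFX complex, and downstream of it a Y box, bound by NF-Y, and CIITA works through the proteins on these boxes. The promoter stretches of an I-A and an I-E gene are shown because H2-Aa and H2-Eb1 were, across clusters, each the gene most like the other. Single cells weighed in that likeness. In LN cluster 6 of the ICOS WT library, 1 cell held 51 of the 55 H2-Aa and 80 of the 85 H2-Eb1 transcript molecules. No value without such cells is given, and a link of the likeness to the promoter letters was not tested. Both are the RefSeq GRCm38.p6 sequence read 5′ to 3′ on the gene's strand, at chr17:34287837-34287934 for H2-Aa and at chr17:34305746-34305842 for H2-Eb1. Capitals mark the core letters of the X box, GCAAC, and the Y box, CTGATTGG, which holds the reversed CCAAT letters.
H2-Aa: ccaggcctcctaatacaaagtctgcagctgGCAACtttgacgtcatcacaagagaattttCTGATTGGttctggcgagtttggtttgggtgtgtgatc
H2-Eb1: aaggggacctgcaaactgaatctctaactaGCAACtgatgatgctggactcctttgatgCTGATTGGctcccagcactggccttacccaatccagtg
The pair of boxes stood 25 bases apart in H2-Aa and 24 bases apart in H2-Eb1, with the Y box ending 43 and 54 bases before the transcript start. Both strands of 32851 RefSeq promoter windows of 300 bases (250 before the start and 50 after it) were searched, and 0.161% of them (53) held both boxes in this order within 40 bases of each other. The Y box letters alone were in 4.10% of the windows and the X core letters alone in 35.2%. The windows of H2-Eb2 and H2-Oa also held the pair. The windows of H2-DMa, H2-DMb1, H2-DMb2, H2-Ob and Cd79a held no pair in these letters. No result is given for the promoters of H2-Ab1 and Cd74. A match is a description of the letters and not of binding.

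The libraries held 2066 LN cells of ICOS FC mice, 1897 LN cells of ICOS WT mice, 5917 spleen cells of ICOS FC mice and 4995 spleen cells of ICOS WT mice, 14875 in all, and the labels state that 12000 cells were prepared for the library. They summed to 15045805 to 28256866 transcript molecules (unique molecular identifiers, UMIs), and the median cell held 6789 UMIs (LN ICOS FC), 6591 (LN ICOS WT), 4361 (spleen ICOS FC) and 5044 (spleen ICOS WT). Icos itself, whose product the genotype label names as deficient, stood at 927.8 counts per 1000000 UMIs (CPM) in the LN library labelled ICOS FC and 598.5 CPM in the one labelled ICOS WT, and at 257.8 CPM and 111.8 CPM in the spleen libraries labelled ICOS FC and ICOS WT. Icos RNA thus went against the label in both tissues, and a 3′ tag need not lie in the altered part of the gene, so the libraries are called by their labels throughout. Foxp3, which defines Treg cells, stood at 70.7 and 72.2 CPM in the LN libraries (ICOS FC, ICOS WT) and 58.99 and 53.2 CPM in the spleen libraries (ICOS FC, ICOS WT), but at 6.38 and 2.17 CPM in spleen cluster 4. Cell barcodes were shared between libraries: 30 between the LN libraries, 1.45% of the cells of the ICOS FC library and 1.58% of those of the ICOS WT library, and 1 to 10 between each other pair. The 34 LN cells of the ICOS FC library with a barcode seen elsewhere held a median of 25020.5 UMIs and the 46 such cells of the ICOS WT library 1072.5, so levels, shares and ratios that rest on them are given without them below.

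Cd74, the invariant chain (chr18:60803848-60812652, plus strand), was read in a large share of the sorted cells. In LN it stood at 173 CPM in the ICOS FC library and 152 CPM in the ICOS WT library, and in spleen at 55.2 CPM in the ICOS FC library and 59.9 CPM in the ICOS WT library. At least 1 Cd74 UMI was found in 35.0% of LN cells of the ICOS FC library (95% interval 32.9% to 37.1%) and 32.7% of those of the ICOS WT library (30.6% to 34.8%). The spleen shares were 12.1% (11.2% to 12.9%) for ICOS FC and 14.0% (13.1% to 15.0%) for ICOS WT. Both LN libraries thus lay above both spleen libraries, and also without shared barcodes, at 160 CPM (ICOS FC) and 154 CPM (ICOS WT) in LN and 54.2 CPM (ICOS FC) and 59.9 CPM (ICOS WT) in spleen. Thinned to 2000 UMIs per cell, which leaves out 59 to 155 shallower cells of a library, the shares were 18.2% (ICOS FC) and 15.4% (ICOS WT) in LN and 7.27% (ICOS FC) and 8.17% (ICOS WT) in spleen. Free RNA in a droplet can give a cell a UMI of a gene that it does not express, and spleen cluster 4, with the least Cd74, had a Cd74 UMI in 1.07% (ICOS FC) and 2.04% (ICOS WT) of its cells at median depths of 4845 UMIs (ICOS FC) and 5492 UMIs (ICOS WT). A spleen cluster gives no background for the LN libraries.

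Most cells with Cd74 had few UMIs of it, and a minority had many. Of the cells with the gene, 41.1% (ICOS FC) and 45.2% (ICOS WT) in LN and 56.4% (ICOS FC) and 57.1% (ICOS WT) in spleen had a single UMI. At the other end, 68 (ICOS FC) and 49 (ICOS WT) LN cells and 12 (ICOS FC) and 8 (ICOS WT) spleen cells held 10 or more Cd74 UMIs. The highest cell had 151 UMIs in the LN ICOS FC library, 108 in the LN ICOS WT library, 49 in the spleen ICOS FC library and 125 in the spleen ICOS WT library.

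H2-DMa, the H2-M alpha chain, was also read in many cells but without the upper range of Cd74. Its level was 39.6 CPM (ICOS FC) and 37.0 CPM (ICOS WT) in LN and 34.2 CPM (ICOS FC) and 34.8 CPM (ICOS WT) in spleen, nearly the same in the 4 libraries. A UMI was found in 24.9% (ICOS FC) and 21.5% (ICOS WT) of LN cells and 13.5% (ICOS FC) and 15.6% (ICOS WT) of spleen cells, which became 8.02% (ICOS FC) and 6.78% (ICOS WT) in LN and 6.32% (ICOS FC) and 6.18% (ICOS WT) in spleen at 2000 UMIs per cell. No cell held more than 6 H2-DMa UMIs. Even in spleen cluster 4, 11.3% of the ICOS FC cells and 14.7% of the ICOS WT cells had one, at 24.0 CPM and 30.9 CPM, so no cluster served as a background for this gene.

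The 3 chain genes themselves were sparse. H2-Aa, the I-A alpha chain, had 166 UMIs (9.58 CPM) in the LN ICOS FC library and 129 (8.57 CPM) in the LN ICOS WT library, and 77 (2.73 CPM, ICOS FC) and 119 (4.38 CPM, ICOS WT) in the spleen libraries. H2-Ab1, the I-A beta chain, had 222 (12.8 CPM, ICOS FC) and 178 (11.8 CPM, ICOS WT) in LN and 66 (2.34 CPM, ICOS FC) and 98 (3.61 CPM, ICOS WT) in spleen. H2-Eb1, the I-E beta chain, had 179 (10.3 CPM, ICOS FC) and 152 (10.1 CPM, ICOS WT) in LN and 84 (2.97 CPM, ICOS FC) and 115 (4.23 CPM, ICOS WT) in spleen. All 3 were higher in each LN library than in either spleen library. A UMI of any of them was found in 10.6% (9.31% to 12.01%, ICOS FC) and 8.33% (7.12% to 9.66%, ICOS WT) of LN cells but in only 1.44% (1.15% to 1.77%, ICOS FC) and 1.24% (0.953% to 1.59%, ICOS WT) of spleen cells. In spleen cluster 4 the shares were 0.458% (ICOS FC) and 0.407% (ICOS WT), which give no background for LN droplets. LN cluster 1, low in Cd74, had H2-Aa in 5.33% (ICOS FC) and 3.55% (ICOS WT) of its cells. It had H2-Ab1 in 1.45% (ICOS FC) and 2.37% (ICOS WT) and H2-Eb1 in 3.15% (ICOS FC) and 0.711% (ICOS WT). The part of free RNA in LN was not tested. Without the cells with a shared barcode, the 3 genes stood at 6.39, 7.60 and 7.06 CPM in the LN ICOS FC library and 8.78, 11.9 and 10.3 CPM in the LN ICOS WT library, so that the ICOS FC library was then the lower one, and 10.2% (ICOS FC) and 8.32% (ICOS WT) of LN cells had a chain UMI. At 2000 UMIs per cell, all cells included, the shares fell to 2.69% (ICOS FC) and 2.41% (ICOS WT) in LN and to 0.677% (ICOS FC) and 0.550% (ICOS WT) in spleen.

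**Figure D1:**
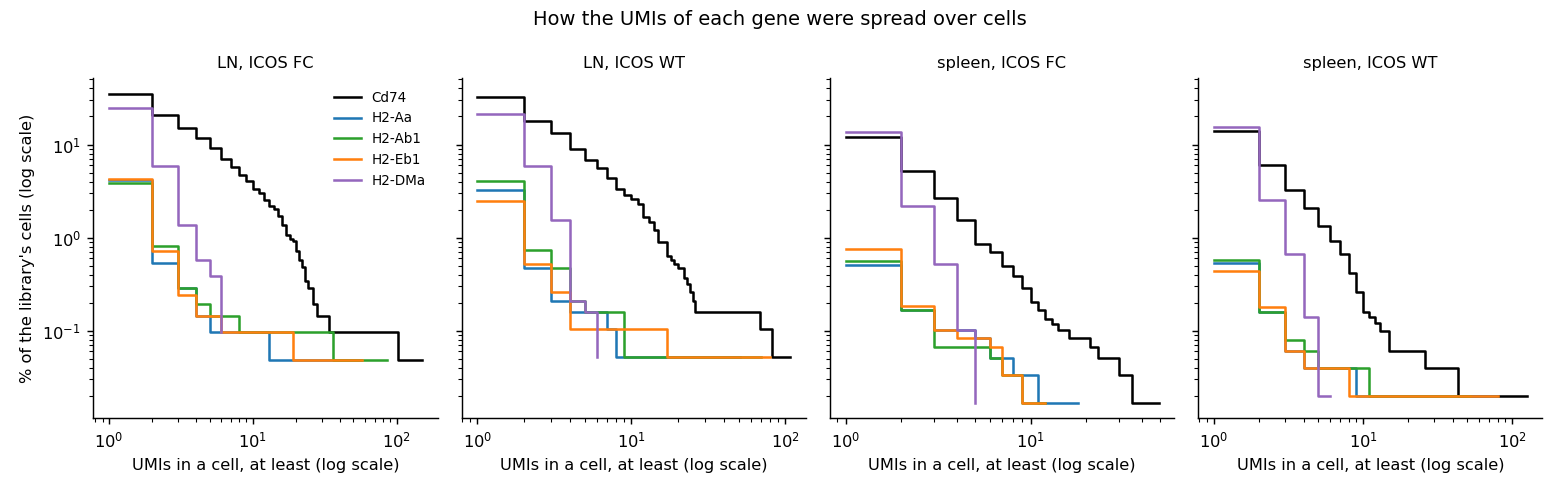
Share of each library's cells (percent, log axis) that held at least the number of UMIs on the x axis (log axis), for the 5 genes, in 4 panels from LN ICOS FC to spleen ICOS WT. Cd74 reaches 151, 108, 49 and 125 UMIs in a cell, H2-DMa stops at 6 or below, and the chain genes start low and run far out in a handful of cells.

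The chain UMIs were concentrated in very few cells. Summed over H2-Aa, H2-Ab1 and H2-Eb1, 13 of the 14875 cells held 10 or more chain UMIs each, a limit set after the values were seen, and these cells held 863 of all 1585 chain UMIs. They were 2 of the LN ICOS FC cells with 46.4% of that library's chain UMIs, 4 of the LN ICOS WT cells with 55.8%, 5 of the spleen ICOS FC cells with 47.6% and 2 of the spleen ICOS WT cells with 71.1%. The same cells held 8.41% (ICOS FC) and 11.8% (ICOS WT) of the Cd74 UMIs in LN and 8.84% (ICOS FC) and 10.3% (ICOS WT) in spleen. For H2-DMa they held 1.02% (ICOS FC) and 1.26% (ICOS WT) in LN and 0.518% (ICOS FC) and 0.422% (ICOS WT) in spleen. These cells were picked by their chain UMIs, so a larger share of chain UMIs than of Cd74 or H2-DMa UMIs follows in part from the rule. The contrast is therefore no comparison of the genes. It gives how much of each library's count left with these cells.

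Of the 13 cells, 10 had a UMI of Cd3e, a chain of the T cell receptor complex, and 7 had a Foxp3 UMI. A Cd79a UMI was present in 5, and 8 lay above the 95th percentile of UMIs in their library. The 3 cells with most chain UMIs were a spleen ICOS WT cell of cluster 5 with 211 chain, 125 Cd74 and 7 Cd79a UMIs among 28267, a LN ICOS WT cell of cluster 6 with 201 chain, 108 Cd74 and 0 Cd79a UMIs among 16397, and a LN ICOS FC cell of cluster 4 with 198 chain, 151 Cd74 and 0 Cd79a UMIs among 39387. These 3 cells held 14, 9 and 14 Cd3e UMIs, so class II chains and T cell RNA stood in the same droplets, with B cell RNA in one and without it in the others. All 13 cells also held UMIs of the listed dendritic cell and macrophage markers, which include genes that T cells hold, and these 3 cells had 14, 11 and 17 of them. The last of them carried a barcode also found in another library. No doublets were called here; the tables as deposited hold these cells.

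Without the 13 cells, the chains summed to 304 UMIs (17.6 CPM, ICOS FC) and 203 UMIs (13.6 CPM, ICOS WT) in LN and to 119 (4.22 CPM, ICOS FC) and 96 (3.54 CPM, ICOS WT) in spleen. The share of cells with a chain UMI hardly moved, at 10.5% (ICOS FC) and 8.14% (ICOS WT) in LN and 1.35% (ICOS FC) and 1.20% (ICOS WT) in spleen. Cd74 stood at 159 CPM (ICOS FC) and 134.6 CPM (ICOS WT) in LN and 50.5 CPM (ICOS FC) and 53.8 CPM (ICOS WT) in spleen. H2-DMa stood at 39.4 CPM (ICOS FC) and 36.8 CPM (ICOS WT) in LN and 34.1 CPM (ICOS FC) and 34.7 CPM (ICOS WT) in spleen.

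**Figure D2:**
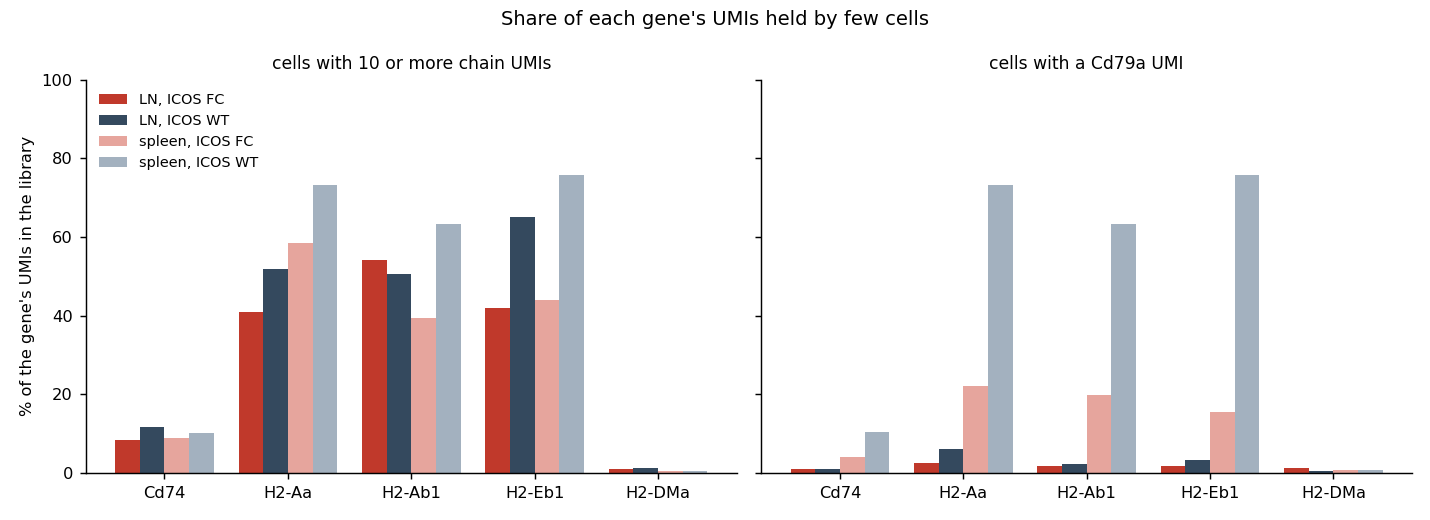
Bars give the percent of each gene's UMIs that lay in cells with 10 or more chain UMIs (left) and in cells with a Cd79a UMI (right), for the 4 libraries. Cells with many chain UMIs held 46.4% to 71.1% of the chain UMIs, by which they were picked, and 8.41% to 11.8% of those of Cd74. Cells with Cd79a held most chain UMIs in the spleen ICOS WT library alone.

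Cd79a, a signalling chain of the B cell receptor, was used to ask whether B cell RNA travelled with these genes. It was rare: 28 UMIs in 26 LN cells of the ICOS FC library (1.26%), 8 UMIs in 8 LN cells of the ICOS WT library (0.422%), 39 UMIs in 34 spleen cells of the ICOS FC library (0.575%) and 40 UMIs in 27 spleen cells of the ICOS WT library (0.541%). Cells without any Cd79a UMI kept 99.1% of the Cd74 UMIs in both LN libraries, and 95.9% and 89.6% in the spleen ICOS FC and ICOS WT libraries. The Cd74 level in them was 173 CPM (ICOS FC) and 151.1 CPM (ICOS WT) in LN and 53.4 CPM (ICOS FC) and 54.0 CPM (ICOS WT) in spleen. For the chains the picture differed by library: cells without Cd79a kept 98.1% (ICOS FC) and 96.3% (ICOS WT) of the chain UMIs in LN and 81.1% in the spleen ICOS FC library, but 28.9% in the spleen ICOS WT library, where the level fell to 3.56 CPM. Cd74 was thus mostly outside Cd79a cells in every library, and the chains were so in 3 of the 4.

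The other B cell markers were below 5 CPM in every library, with 2 exceptions. Of 18 listed markers, 13 were in the tables, and immunoglobulin genes were not analysed here. Ralgps2 (27.1 CPM (ICOS FC) and 30.9 CPM (ICOS WT) in LN, 37.9 CPM (ICOS FC) and 37.8 CPM (ICOS WT) in spleen) and Cd79b (22.4 CPM (ICOS FC) and 10.9 CPM (ICOS WT) in LN, 19.6 CPM (ICOS FC) and 10.96 CPM (ICOS WT) in spleen) made up most of the list's summed level of 61.3 CPM (ICOS FC) and 52.0 CPM (ICOS WT) in LN and 67.2 CPM (ICOS FC) and 58.8 CPM (ICOS WT) in spleen. The other 11 summed to 11.8 CPM (ICOS FC) and 10.2 CPM (ICOS WT) in LN and 9.66 CPM (ICOS FC) and 10.0 CPM (ICOS WT) in spleen. Without every cell that had a UMI of any of these 11 markers, Cd74 stood at 178 CPM (ICOS FC) and 152 CPM (ICOS WT) in LN and 53.5 CPM (ICOS FC) and 53.7 CPM (ICOS WT) in spleen, so its LN level was as large without them and the spleen ICOS WT level lower than the 59.9 CPM of all cells. Cd79b, which the 11 leave out, was itself higher in some of the clusters high in Cd74: it stood at 38.9 CPM (ICOS FC) and 16.8 CPM (ICOS WT) in LN cluster 0 but 4.48 CPM (ICOS FC) and 4.89 CPM (ICOS WT) in LN cluster 5. In spleen it stood at 38.3 CPM (ICOS FC) and 19.9 CPM (ICOS WT) in cluster 1 and 39.8 CPM (ICOS FC) and 22.3 CPM (ICOS WT) in cluster 2, but 1.52 CPM (ICOS FC) and 0.965 CPM (ICOS WT) in cluster 4. Other clusters high in Cd74 had less. LN cluster 4 had 13.5 CPM (ICOS FC) and 6.48 CPM (ICOS WT), beside 13.2 CPM (ICOS FC) and 8.29 CPM (ICOS WT) in cluster 1, low in Cd74. LN cluster 6 had 3 (ICOS FC) and 0 (ICOS WT) Cd79b UMIs, and spleen cluster 5 had 14.9 CPM (ICOS FC) and 13.4 CPM (ICOS WT). Without every cell with a UMI of any of the 13 markers, Cd79b included, Cd74 stood at 167 CPM (ICOS FC) and 156 CPM (ICOS WT) in LN and 47.6 CPM (ICOS FC) and 51.2 CPM (ICOS WT) in spleen.

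Markers of dendritic cells and macrophages were led by genes that T cells can also hold. The 19 markers summed to 318 CPM (ICOS FC) and 288 CPM (ICOS WT) in LN and 304 CPM (ICOS FC) and 290 CPM (ICOS WT) in spleen, of which Cst3, a cysteine protease inhibitor, gave 152 CPM (ICOS FC) and 140.2 CPM (ICOS WT) in LN and 127 CPM (ICOS FC) and 116 CPM (ICOS WT) in spleen, and Ccr7, a homing receptor of naive T cells as well, gave 147 CPM (ICOS FC) and 133 CPM (ICOS WT) in LN and 169 CPM (ICOS FC) and 167 CPM (ICOS WT) in spleen. At 0 UMIs were 5 (ICOS FC) and 1 (ICOS WT) of the 19 in LN and 7 (ICOS FC) and 4 (ICOS WT) in spleen. Itgax, which encodes CD11c, had 0 UMIs (ICOS FC) and 2 UMIs (ICOS WT) in LN and 0 (ICOS FC) and 10 (ICOS WT) in spleen, and Siglech had 0 UMIs in every library. Lyz2, the macrophage lysozyme, stood at 5.54 CPM (ICOS FC) and 2.86 CPM (ICOS WT) in LN and 1.38 CPM (ICOS FC) and 0.478 CPM (ICOS WT) in spleen. The part of these markers in the class II values was not tested.

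Within cells, Cd74 and the chains went together. With the 13 cells set aside, a chain UMI was found in 8.19% of LN ICOS FC cells with no Cd74 UMI, 10.4% of those with 1 to 2, 15.8% of those with 3 to 9 and 39.4% of the 66 with 10 or more. In the LN ICOS WT library the shares were 5.01%, 11.1%, 15.8% and 37.8%. In spleen they were 0.922%, 2.70% and 8.22% in the ICOS FC library and 0.862%, 2.04% and 6.54% in the ICOS WT library for 0, 1 to 2 and 3 to 9 Cd74 UMIs, and only 7 (ICOS FC) and 6 (ICOS WT) cells held 10 or more. The share thus went up with Cd74 in each library.

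Depth went the same way, so levels are given beside the shares. Median UMIs per cell in the LN ICOS FC library were 6331, 6856.5, 9136 and 15309.5 from no Cd74 UMI to 10 or more, and 6408, 6357, 8191 and 11741 in the LN ICOS WT library. As levels, the chains stood at 12.8, 13.6, 24.5 and 51.0 CPM in the LN ICOS FC library and 7.81, 18.9, 23.0 and 36.7 CPM in the LN ICOS WT library. In spleen the chain levels were 2.03, 8.27 and 23.5 CPM (ICOS FC) and 1.93, 8.05 and 17.3 CPM (ICOS WT) from 0 to 3 to 9 Cd74 UMIs. The levels thus ran in the same order as the shares. Without shared barcodes the top LN bin had a chain UMI in 33.9% (ICOS FC) and 37.8% (ICOS WT) of its cells, at 46.1 CPM (ICOS FC) and 36.7 CPM (ICOS WT). The part of depth, or of droplets with RNA of a further cell, was not tested.

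By level, H2-DMa ran with Cd74 in spleen but not in LN. The H2-DMa level in LN was lowest in the cells with 10 or more Cd74 UMIs, at 21.4 CPM in the ICOS FC library and 26.4 CPM in the ICOS WT library, against 43.6 CPM (ICOS FC) and 38.3 CPM (ICOS WT) in cells with none. The share of cells with an H2-DMa UMI went the other way. It was 33.3% (22.2% to 46.0%, ICOS FC) and 26.7% (14.6% to 41.9%, ICOS WT) in these deeper cells. In LN cells with no Cd74 UMI it was 23.8% (ICOS FC) and 20.7% (ICOS WT). The part of depth was not tested. In spleen it was higher in cells with 3 to 9 Cd74 UMIs, at 53.8 CPM (ICOS FC) and 62.1 CPM (ICOS WT), than in cells with none, at 30.8 CPM (ICOS FC) and 31.9 CPM (ICOS WT). Cd79a was found in 1.41%, 0.966%, 0.830% and 1.52% of the LN ICOS FC cells along the same 4 bins and in 0.313%, 0.543%, 0.493% and 0 of the LN ICOS WT cells, so the top bin held Cd79a in 1 cell (ICOS FC) and 0 cells (ICOS WT). In spleen Cd79a was found in 0.576%, 0.180% and 0.685% of the ICOS FC cells and 0.536%, 0.370% and 0 of the ICOS WT cells with 0, 1 to 2 and 3 to 9 Cd74 UMIs. With the 13 cells set aside, the share with Cd79a thus did not climb steadily along these bins in any library. All 13 cells held 10 or more Cd74 UMIs, and 5 of them held Cd79a. Bins without them cannot show whether Cd79a went with the highest Cd74.

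**Figure D3:**
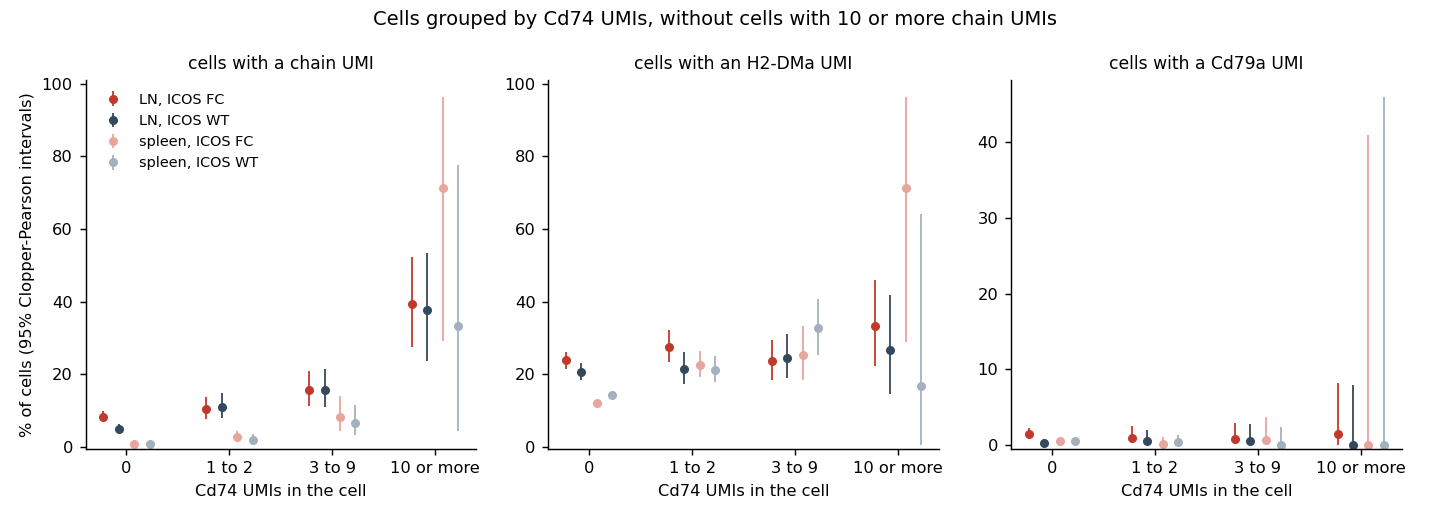
Percent of cells with a chain UMI, an H2-DMa UMI or a Cd79a UMI (y axis) in bins of 0, 1 to 2, 3 to 9 and 10 or more Cd74 UMIs per cell (x axis), in each library, without cells with 10 or more chain UMIs; bars are 95% Clopper-Pearson intervals. The chain share reaches 39.4% and 37.8% in the top LN bin, and the Cd79a share stays at or below 1.52%.

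Few cells with much Cd74 carried both the chains and Cd79a. Cells with 5 or more Cd74 UMIs, the 13 included, numbered 189 (ICOS FC) and 129 (ICOS WT) in LN and 50 (ICOS FC) and 67 (ICOS WT) in spleen. No chain UMI was found in 137 (ICOS FC) and 93 (ICOS WT) of them in LN and 34 (ICOS FC) and 57 (ICOS WT) in spleen, and a Cd79a UMI in 2 (ICOS FC) and 2 (ICOS WT) in LN and 3 (ICOS FC) and 2 (ICOS WT) in spleen. Invariant chain RNA without any chain UMI was therefore the common pattern at this depth, at which a chain transcript can be missed.

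Across the deposited clusters of cells, Cd74 was high in the effector and follicular Treg-like clusters, in LN clusters 4 and 6 and in spleen cluster 5, and lower in the others. The clusters are the authors', numbered within each tissue, and are named here only from fixed markers among their leading genes. The settings of the clustering are not known and these genes may have entered it, so levels by cluster are a description. In LN, cluster 0 (effector Treg-like, led by S100a4, Ccr2, S100a6 and Klrg1) had 275.6 CPM of Cd74 in the ICOS FC library and 267 CPM in the ICOS WT library. Cluster 2 (follicular Treg-like, with Tox2, Pdcd1 and Sostdc1) had 189.7 CPM (ICOS FC) and 160.5 CPM (ICOS WT). Cluster 4 (unnamed, led by Shmt1, Srm and Hk2, which act in one-carbon metabolism, polyamine synthesis and glycolysis) had 243 CPM (ICOS FC) and 113 CPM (ICOS WT). Below them were cluster 3 (unnamed) with 53.4 CPM (ICOS FC) and 66.4 CPM (ICOS WT), cluster 7 (unnamed, with Cd8a, Cd8b1 and Klrd1 beside Egr2 and Nr4a1) with 47.1 CPM (ICOS FC) and 89.7 CPM (ICOS WT), cluster 1 (unnamed, led by Ly6c1 and Igfbp4) with 28.1 CPM (ICOS FC) and 38.0 CPM (ICOS WT), and cluster 5 (interferon response-like, with Ifit3 and Rsad2) with 25.4 CPM (ICOS FC) and 34.2 CPM (ICOS WT). With all cells counted, the high clusters were apart from the low ones in the ICOS FC library, and in the ICOS WT library all but clusters 4 and 7.

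Cluster 6 of LN stood apart. It held 179 cells with a median of 1959 UMIs, and H2-Eb1, H2-Ab1 and H2-Aa themselves led its genes by fold. A UMI of these genes was in only 3.91%, 5.03% and 3.91% of its cells. Of its 228 chain UMIs, 201 lay in 1 cell, so the chains do not describe the cluster as a whole. Its Cd74 level was 199 CPM in the ICOS FC library and 547 CPM in the ICOS WT library, and its chain level 68.4 CPM (ICOS FC) and 873 CPM (ICOS WT). Without the cell with 201 chain UMIs, the chain level in the ICOS WT library was 68.9 CPM. The high value of the ICOS WT library thus rested on 1 cell.

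In spleen, too, follicular and effector Treg-like clusters were among the highest. Cluster 1 (follicular Treg-like, with Sostdc1, Pdcd1 and Tox2) had 158 CPM of Cd74 in the ICOS FC library and 179.8 CPM in the ICOS WT library. Cluster 5 (TCR activation-like, with Nr4a1, Nr4a3 and Egr1 to Egr3) had 99.1 CPM (ICOS FC) and 210.4 CPM (ICOS WT), and cluster 2 (effector Treg-like, with S100a4, Ccr2 and S100a6) 91.2 CPM (ICOS FC) and 75.0 CPM (ICOS WT). Cluster 6 (interferon response-like) had 55.5 CPM in the ICOS FC library, and in the ICOS WT library it held 47 cells, under the minimum of 50. The lowest were cluster 0 with 11.5 CPM (ICOS FC) and 13.9 CPM (ICOS WT), cluster 3 with 6.21 CPM (ICOS FC) and 12.9 CPM (ICOS WT) and cluster 4, which is low in Foxp3, with 2.73 CPM (ICOS FC) and 4.10 CPM (ICOS WT). Over both labels, the highest and lowest clusters differed 13.6-fold in LN and 47.9-fold in spleen, or 11.6-fold in LN and 45.4-fold in spleen without the cells with 10 or more chain UMIs.

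Neighbours in the order could not always be told apart. In the LN ICOS FC library, the intervals of cluster 0 and cluster 4 were apart, those of clusters 4, 6 and 2 overlapped each with the next, cluster 2 was apart from cluster 3, and clusters 3, 7, 1 and 5 overlapped each with the next. In the LN ICOS WT library, with all cells counted, clusters 6, 0, 2 and 4 were apart from one another. Overlaps lay only between 4 and 7, 7 and 3, and 1 and 5. The first place of cluster 6 leaned on 1 ICOS WT cell with 108 Cd74 UMIs, where the cluster held 168 over both labels. In spleen, clusters 5 and 2 overlapped in the ICOS FC library and clusters 5 and 1 in the ICOS WT library, as did 3 and 4 in the ICOS FC library and 0 and 3 in the ICOS WT library. The place of spleen cluster 5 in the ICOS WT library also leaned on few cells, with 125 and 42 Cd74 UMIs in 2 of them. The intervals do not cover such cells. The order inside the high and the low clusters was thus only partly resolved.

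The share of cells with Cd74 was also high in LN clusters 0 and 4 and in spleen cluster 1. Shares of the other clusters high in Cd74 are not given here. A UMI was found in 50.8% (ICOS FC) and 49.9% (ICOS WT) of the cells of LN cluster 0 and in 61.3% of LN cluster 4 in the ICOS FC library and 69 of its 138 cells in the ICOS WT library, whose median depth of 12166 UMIs (ICOS FC) and 13388.5 UMIs (ICOS WT) was the highest of all LN clusters. At 2000 UMIs per cell the shares were 29.99% (ICOS FC) and 24.6% (ICOS WT) in cluster 0 but 28.1% (ICOS FC) and 12.6% (ICOS WT) in cluster 4. Spleen cluster 1 had 32.4% (ICOS FC) and 36.3% (ICOS WT), or 21.2% (ICOS FC) and 22.9% (ICOS WT) thinned. By the thinned shares, LN cluster 4 of the ICOS WT library thus lay well below LN cluster 0.

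H2-DMa varied much less between clusters and followed another order. Over both labels, the highest and lowest clusters differed 3.06-fold in LN (68.6 CPM in cluster 5, 22.4 CPM in cluster 4) and 2.29-fold in spleen (53.2 CPM in cluster 1, 23.2 CPM in cluster 3). In LN the interferon response-like cluster 5 had the most, 80.7 CPM, in the ICOS FC library, while in the ICOS WT library cluster 3 with 62.6 CPM lay just above it at 58.6 CPM. Cluster 5 had the least Cd74 of the LN clusters in both. In spleen, cluster 1 was highest in both libraries, with 51.4 CPM of H2-DMa (ICOS FC) and 55.6 CPM (ICOS WT).

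**Figure D4:**
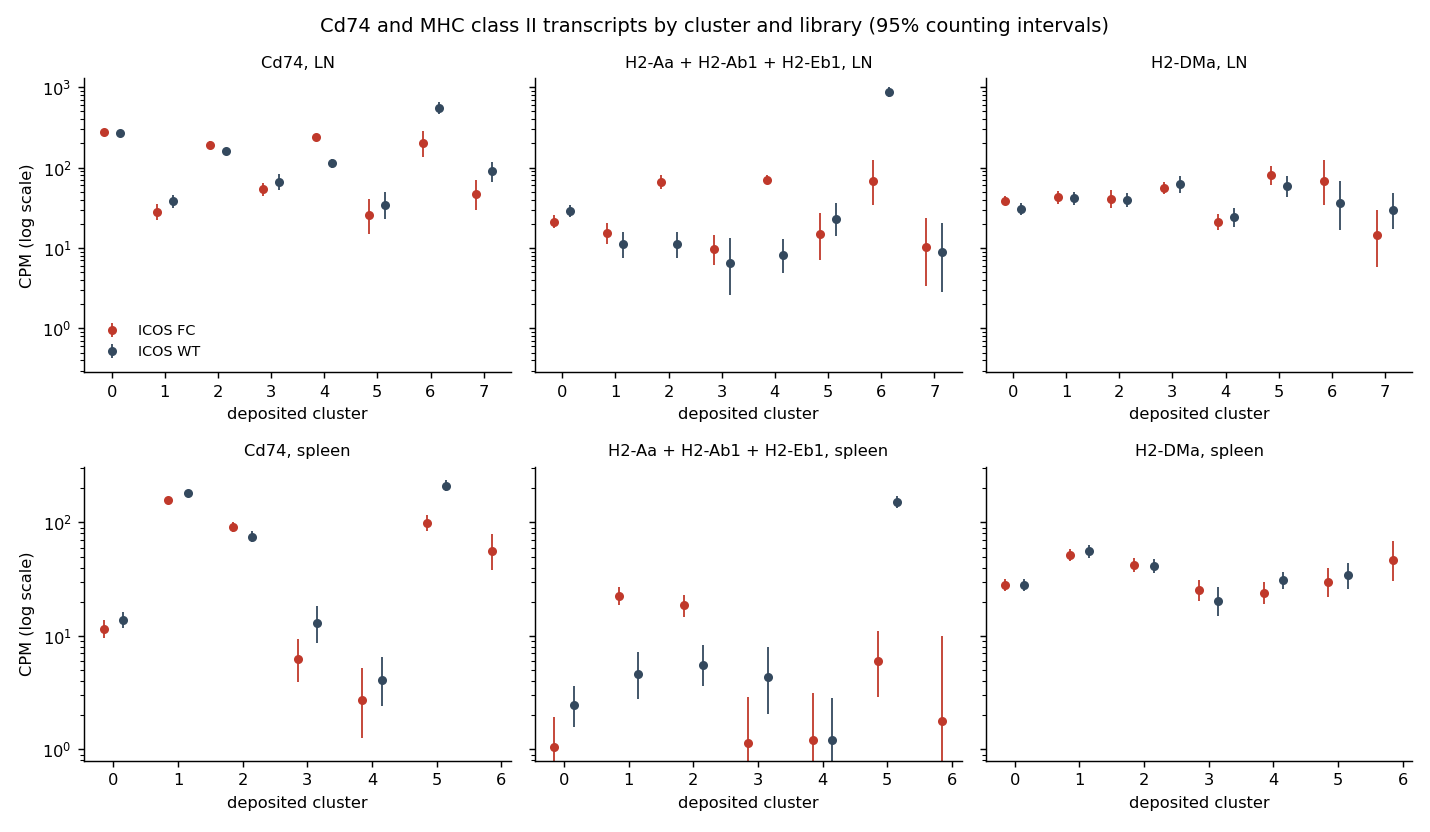
Level of Cd74, the 3 chains in sum and H2-DMa (CPM, log axis) in each deposited cluster with at least 50 cells, LN and spleen, ICOS FC (red) left of ICOS WT (navy); bars are 95% counting intervals. Cd74 spans 2.73 to 547 CPM, H2-DMa a much narrower band, and the chains spike in LN cluster 6 and spleen cluster 5 of the ICOS WT libraries.

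The number of chain UMIs found for each Cd74 UMI differed between clusters. Without the cells with 10 or more chain UMIs and over both labels, LN cluster 0 had 7.95 chain UMIs per 100 Cd74 UMIs, cluster 4 had 7.57 and cluster 2 had 10.7, whereas cluster 1 had 39.7, cluster 6 had 45.0 and cluster 5 had 51.5. In spleen, cluster 1 had 3.85, cluster 5 had 6.38 and cluster 2 had 11.3, against 26.9 in cluster 3 and 34.6 in cluster 4. LN clusters 0, 2 and 4 and spleen clusters 1 and 5, which were high in Cd74, thus had few chain UMIs for each of its UMIs. LN cluster 6 was not so: its Cd74 level without those cells, 153 CPM, lay beside the 148 CPM of cluster 2, at a far higher number of chain UMIs. The low clusters were not alike either: LN clusters 3 and 7 had 15.3 and 13.5, and spleen cluster 0 had 13.8. Spleen cluster 6 had the lowest value of its tissue, 2.17, from 1 chain UMI and 46 Cd74 UMIs. Cd74 is the divisor, so a high Cd74 count by itself lowers this value. The H2-DMa count per 100 Cd74 UMIs ran from 12.9 (cluster 4) to 303 (cluster 5) in LN and from 29.6 (cluster 5) to 796 (cluster 4) in spleen. Neither ratio was alike across the clusters of a tissue.

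The ICOS FC and ICOS WT libraries of LN had nearly the same levels of all 5 genes. Cd74 was 1.14-fold higher in the ICOS FC library (log2 ratio 0.19, interval 0.11 to 0.27). The log2 ratio was 0.16 (-0.18 to 0.50) for H2-Aa, 0.11 (-0.18 to 0.41) for H2-Ab1, 0.03 (-0.29 to 0.35) for H2-Eb1 and 0.10 (-0.06 to 0.26) for H2-DMa. A gene was called higher or lower when it reached 5 CPM in a library, differed at least 1.5-fold and had an interval clear of equality, and by this rule 0 of the 5 were called, where 1.93% of the 8694 genes measured at that level were called higher and 2.22% lower.

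Those LN ratios depended on few cells. Without the cells with 10 or more chain UMIs, H2-Eb1 had a log2 ratio of 0.77 (0.28 to 1.27) and was called higher, while Cd74 stood at 0.24 (0.16 to 0.32), H2-Aa at 0.46 (-0.02 to 0.94), H2-Ab1 at 0.0075 (-0.42 to 0.44) and H2-DMa at 0.10. Without the cells whose barcode was in another library, the chains turned the other way, at -0.46 (-0.84 to -0.07) for H2-Aa, -0.65 (-0.99 to -0.31) for H2-Ab1, which was called lower, and -0.54 (-0.90 to -0.18) for H2-Eb1. Cd74 was then at 0.06 (-0.02 to 0.14). The 34 shared-barcode cells of the ICOS FC library held 38.4% of its chain UMIs and 11.2% of its Cd74 UMIs, the cell with 198 chain UMIs among them. H2-DMa stood at 0.11. Cells of very high depth and cluster 6 moved the chains as well: they were all 3 called lower without the 5% of cells with most UMIs, at -0.60, -1.10 and -0.78 for H2-Aa, H2-Ab1 and H2-Eb1, and all 3 called higher without clusters 6 and 7, at 0.94, 0.89 and 1.16. Cd74 lay at 0.14 and 0.26 in these settings and H2-DMa at 0.16 and 0.10. The direction of the chains in LN thus turned with the cells that were counted, and that of Cd74 and H2-DMa did not in these settings. With each cluster given equal weight, Cd74 turned as well, to -0.31.

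By cluster, Cd74 differed between the LN libraries in both directions. In cluster 6 the log2 ratio of ICOS FC over ICOS WT was -1.46 (-2.06 to -0.90), and it was 0.72 (-0.06 to 1.51) without the cell with 201 chain UMIs. In cluster 7 it was -0.93 (-1.71 to -0.19). In cluster 4 Cd74 stood at 243 CPM (227 to 259.5) in the ICOS FC library and 113 CPM (99.8 to 128) in the ICOS WT library, a log2 ratio of 1.10 (0.90 to 1.31). The ratio of cluster 4 was 0.84 (0.63 to 1.05) without the cell with many chain UMIs and 0.78 (0.57 to 1.00) without shared barcodes, at 204 CPM (ICOS FC) and 119 CPM (ICOS WT). Over the 8 clusters the interval lay above equality in 2, below in 3 and spanned it in 3. Without both kinds of cell it lay above in 3 (clusters 0, 4 and 6) and below in 2 (clusters 2 and 7), so the clusters did not share a direction. H2-DMa lay above equality in cluster 0 (0.36, 0.04 to 0.68) and spanned it in the other 7.

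In spleen the chains were lower in the ICOS FC library, and Cd74 and H2-DMa were close to equal. The log2 ratio was -0.68 (-1.12 to -0.26) for H2-Aa, -0.63 (-1.10 to -0.16) for H2-Ab1 and -0.51 (-0.93 to -0.09) for H2-Eb1, all 3 under the minimum of 5 CPM in both libraries. It was -0.12 (-0.22 to -0.01) for Cd74 and -0.03 (-0.16 to 0.10) for H2-DMa. The rule called 0 of the 2 members that reached 5 CPM, beside 1.07% of 8406 genes called higher and 0.559% called lower.

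The lower chain level of the spleen ICOS FC library did not outlast the removal of 7 cells. Without the 5 (ICOS FC) and 2 (ICOS WT) cells with 10 or more chain UMIs, H2-Aa had 32 UMIs in each library, H2-Ab1 40 (ICOS FC) and 36 UMIs (ICOS WT), and H2-Eb1 47 (ICOS FC) and 28 UMIs (ICOS WT), with log2 ratios of -0.05 (-0.81 to 0.70), 0.10 (-0.59 to 0.79) and 0.69 (-0.01 to 1.42). Without the cells with a Cd79a UMI, the ratios were 0.85 (0.21 to 1.52) for H2-Aa, 0.50 (-0.13 to 1.16) for H2-Ab1 and 1.29 (0.64 to 1.97) for H2-Eb1, so the direction turned. Cd74 then stood at -0.01 (-0.12 to 0.09). The 2 spleen ICOS WT cells with most chain UMIs both lay in cluster 5 and held 28 and 25 UMIs of the 11 B cell markers.

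Those 2 cells also set the level of spleen cluster 5. Its chains stood at 5.97 CPM in the ICOS FC library and 151 CPM in the ICOS WT library, or 5.97 CPM (ICOS FC) and 7.48 CPM (ICOS WT) without them. Its Cd74 level was 99.1 CPM (ICOS FC) and 210.4 CPM (ICOS WT), a log2 ratio of -1.09 (-1.36 to -0.81). Without them it was 99.1 CPM (ICOS FC) and 112 CPM (ICOS WT), a log2 ratio of -0.17 (-0.48 to 0.14). In the follicular Treg-like cluster 1, Cd74 was lower in the ICOS FC library under both settings, by -0.19 (-0.34 to -0.05) on the log2 scale with all cells and -0.34 without the cells with many chain UMIs. H2-DMa spanned equality in all 6 clusters compared.

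Cells in which Foxp3 RNA was seen were also taken alone. At this depth a Foxp3 transcript can be missed, so cells without a Foxp3 UMI can be Treg cells as well. A Foxp3 UMI was found in 804 (ICOS FC) and 708 (ICOS WT) LN cells and 1290 (ICOS FC) and 1038 (ICOS WT) spleen cells. With the cells rich in chain UMIs set aside, Cd74 stood in them at 182 CPM (ICOS FC) and 155.6 CPM (ICOS WT) in LN and at 74.1 CPM (ICOS FC) and 61.5 CPM (ICOS WT) in spleen. In cells without a Foxp3 UMI it stood at 141 CPM (ICOS FC) and 120.5 CPM (ICOS WT) in LN and at 43.1 CPM (ICOS FC) and 51.5 CPM (ICOS WT) in spleen. Cd74 was thus higher in cells with Foxp3 RNA in each library, and in LN also without shared barcodes, at 177 CPM (ICOS FC) and 158 CPM (ICOS WT) with and 137 CPM (ICOS FC) and 122 CPM (ICOS WT) without a Foxp3 UMI. Those cells were also deeper, with median UMIs of 7628.5 (ICOS FC) and 7045 (ICOS WT) in LN and 4540 (ICOS FC) and 5391.5 (ICOS WT) in spleen, against 6360 (ICOS FC) and 6392 (ICOS WT) in LN and 4318 (ICOS FC) and 4954 (ICOS WT) in spleen in cells without a Foxp3 UMI, and the part of depth was not tested. In those cells the log2 ratio of ICOS FC over ICOS WT was 0.22 (0.10 to 0.35) in LN and 0.27 (0.07 to 0.47) in spleen, both below 1.5-fold, and H2-DMa had 0.09 and 0.08.

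LN cells had more Cd74 and chain RNA than spleen cells, and about as much H2-DMa. Between the ICOS FC libraries, Cd74 was 3.13-fold higher in LN (log2 ratio 1.65, 1.56 to 1.73), H2-Aa 3.52-fold (1.81, 1.42 to 2.22), H2-Ab1 5.48-fold (2.46, 2.05 to 2.87) and H2-Eb1 3.47-fold (1.80, 1.41 to 2.19). H2-DMa differed by 0.21 (0.07 to 0.36). The rule for tissues asked for a 2-fold difference, and 4 of the 5 members were called higher, where 7.01% of 8697 genes were called higher and 1.07% lower; the median gene stood at 0.12.

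Between the ICOS WT libraries the differences were smaller for the chains. Cd74 was 2.54-fold higher in LN (log2 ratio 1.34, 1.25 to 1.43), H2-Ab1 3.28-fold (1.71, 1.35 to 2.09), H2-Eb1 2.39-fold (1.26, 0.90 to 1.62) and H2-Aa 1.96-fold (0.97, 0.60 to 1.34), just short of the rule. H2-DMa differed by 0.09 (-0.07 to 0.24). The rule called 3 of the 5 higher, beside 6.64% of 8723 genes called higher and 0.676% called lower, with the median gene at 0.13. The difference between the 2 genotypes in this comparison was not tested.

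LN stayed higher than spleen without the cells rich in chain UMIs, without shared barcodes and without Cd79a cells, but not for every gene without some clusters. Without the cells with 10 or more chain UMIs, the log2 ratios in the ICOS FC libraries were 1.66 for Cd74, 2.32 for H2-Aa, 2.06 for H2-Ab1 and 1.85 for H2-Eb1, and in the ICOS WT libraries 1.32, 1.81, 2.15 and 1.78. Without shared barcodes they were 1.56, 1.42, 1.98 and 1.35 (ICOS FC) and 1.36, 1.00, 1.74 and 1.28 (ICOS WT). Without Cd79a cells they were 1.70, 2.14, 2.75 and 2.02 (ICOS FC) and 1.49, 2.77, 3.12 and 3.24 (ICOS WT). LN was thus higher for all 4 genes under each of these settings. It was not so for every gene in the ICOS WT libraries when LN clusters 6 and 7 and spleen cluster 4 were left out, with log2 ratios of 1.08 for Cd74, 0.71 for H2-Ab1, -0.0053 for H2-Aa and -0.06 for H2-Eb1, or with cells under 5% mitochondrial counts, with 1.52, 0.74, -0.08 and -0.19. The LN ICOS WT cell with 201 chain UMIs lies in cluster 6. The makeup of the libraries differed as well: of the 18 fixed effector Treg markers that were measured, 14 (ICOS FC) and 15 (ICOS WT) were called higher in LN, and all 15 interferon response markers in both genotypes, where 7.01% (ICOS FC) and 6.64% (ICOS WT) of all genes tested were, and their part in the class II values was not tested.

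**Figure D5:**
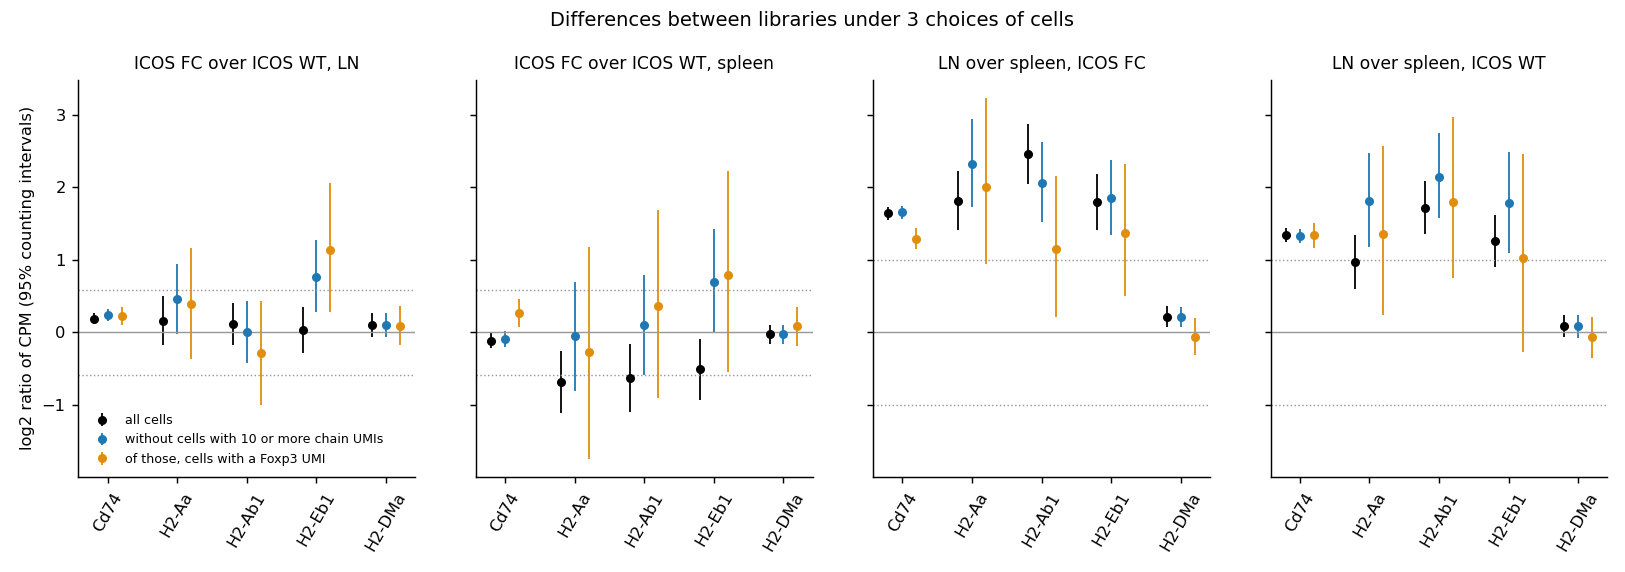
Log2 ratios of the 5 genes in the comparisons of ICOS FC over ICOS WT (LN, spleen) and LN over spleen (ICOS FC, ICOS WT), with all cells (black), without cells with 10 or more chain UMIs (blue) and, of the latter cells, those with a Foxp3 UMI (orange); bars are 95% counting intervals and dotted lines the 1.5-fold or 2-fold limits. Cd74 lies at 1.65 and 1.34 between tissues with all cells, H2-DMa near 0, and the spleen chains move from below 0 with all cells to either side of it.

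The genes around the members were listed by role, and most were steady. The list of other class II genes held 7 genes, of which 5 were in the tables. H2-Oa and H2-Ob, the chains of H2-O, which restrains H2-M, were lower in LN than in spleen, with H2-Oa at 9.69 CPM against 18.7 CPM for ICOS FC and 8.11 CPM against 12.3 CPM for ICOS WT, and H2-Ob at 11.5 CPM against 17.6 CPM for ICOS FC and 9.44 CPM against 14.3 CPM for ICOS WT, all short of the 2-fold limit. H2-Oa was called higher in the ICOS FC library of spleen (log2 ratio 0.60). H2-DMb1 and H2-DMb2 encode the beta chains of H2-M. H2-DMb1 had 37 UMIs (ICOS FC) and 17 UMIs (ICOS WT) in LN and 14 (ICOS FC) and 9 (ICOS WT) in spleen, and H2-DMb2 had 28 (ICOS FC) and 22 (ICOS WT) in LN and 25 (ICOS FC) and 17 (ICOS WT) in spleen. H2-Eb2 had 0 UMIs in LN and in the spleen ICOS FC library, and 1 in the spleen ICOS WT library.

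CIITA, without which class II genes are silent in most cells, was barely read. Ciita had 15 UMIs (ICOS FC) and 20 UMIs (ICOS WT) in LN (0.866 and 1.33 CPM) and 10 UMIs (ICOS FC) and 9 UMIs (ICOS WT) in spleen (0.354 and 0.331 CPM), and 4 of the 13 cells rich in chain UMIs held one. The factors that sit on the boxes were present at higher counts. Rfxap stood at 42.0 CPM (ICOS FC) and 44.1 CPM (ICOS WT) in LN and 53.8 CPM (ICOS FC) and 45.7 CPM (ICOS WT) in spleen, Rfxank at 13.6 to 16.2 CPM over the 4 libraries, and Rfx5, the DNA-binding subunit, at 6.02 to 9.12 CPM. The NF-Y subunits and Creb1 lay between 17.5 and 78.4 CPM. Of the 8 listed factors 7 reached 5 CPM, and none was called in any comparison. Of all genes tested, 0.559% to 7.01% were called in a given comparison and direction. At such shares a count of 0 among 7 genes says little about them.

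Of the genes for peptide loading and turnover, 6 or 7 reached 5 CPM in a comparison. Ctss, the protease that removes the last part of the invariant chain in antigen-presenting cells, stood at 354 CPM (ICOS FC) and 345.5 CPM (ICOS WT) in LN and 205 CPM (ICOS FC) and 202 CPM (ICOS WT) in spleen, below the 2-fold limit. Lgmn, an endosomal asparagine protease, was called higher in LN, at 31.9 CPM against 8.64 CPM in spleen for ICOS FC (log2 ratio 1.89) and 30.7 CPM against 6.88 CPM for ICOS WT (2.16). Ctsl was called lower in LN in the ICOS WT libraries, at 4.32 CPM against 9.71 CPM. Cd83, which keeps class II at the surface, was called higher in the ICOS FC library in both tissues, at 40.8 CPM (ICOS FC) against 27.2 CPM (ICOS WT) in LN and 59.2 CPM (ICOS FC) against 33.3 CPM (ICOS WT) in spleen. March1, the ligase that Cd83 opposes, had 1 UMI (ICOS FC) and 2 UMIs (ICOS WT) in LN and 3 (ICOS FC) and 3 (ICOS WT) in spleen.

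Interferon gamma signalling switches on Ciita in many cells. Of its 9 measured genes, 0 were called between ICOS FC and ICOS WT in LN or spleen. Among all genes tested, 1.93% were called higher and 2.22% lower in LN, and 1.07% higher and 0.559% lower in spleen. Of the 9 genes, 3 (ICOS FC) and 2 (ICOS WT) were called higher in LN than in spleen, where 7.01% (ICOS FC) and 6.64% (ICOS WT) of all genes tested were. Between tissues, Socs1, a feedback inhibitor of the pathway, was called higher in LN at 386 CPM against 122 CPM in spleen for ICOS FC and 338 CPM against 132 CPM for ICOS WT. Irf8, a factor of the interferon response, was called higher in LN in the ICOS FC libraries, at 34.6 CPM against 12.7 CPM, and stood at 33.8 CPM in LN and 18.4 CPM in spleen in the ICOS WT libraries. The list's median log2 ratio was 0.54 (ICOS FC) and 0.61 (ICOS WT), against 0.12 and 0.13 for all genes.

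Of the proteins that bind class II or Cd74, 6 of 8 were measured. Lag3, an inhibitory receptor for class II, was called higher in the spleen ICOS FC library, at 49.0 CPM against 15.3 CPM (log2 ratio 1.68), and stood at 81.8 CPM (ICOS FC) and 56.8 CPM (ICOS WT) in LN. Between tissues, Lag3 was called higher in LN in the ICOS WT libraries (log2 ratio 1.90) but not in the ICOS FC libraries (0.74). Mif, a ligand of Cd74, stood at 640.1 CPM (ICOS FC) and 524 CPM (ICOS WT) in LN and 329.7 CPM (ICOS FC) and 325 CPM (ICOS WT) in spleen. Cd44, which signals with Cd74, stood at 52.6 CPM (ICOS FC) and 64.1 CPM (ICOS WT) in LN and 34.7 CPM (ICOS FC) and 34.0 CPM (ICOS WT) in spleen, and Cd4, the coreceptor for class II, at 130.1 to 179 CPM over the 4 libraries. Cxcr4, another partner of Cd74, was called lower in LN in the ICOS WT libraries, at 34.0 CPM against 73.2 CPM.

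The pattern of each gene was compared with those of 8250 genes by Pearson correlation of log2(CPM + 5) over the 29 combinations of cluster and library with at least 50 cells, which share libraries, depth and cells. The genes most like Cd74 were Syngr2 (r = 0.92), Hacd3 (0.92), Ctsz (0.91), Maf (0.91) and Sh3bgrl (0.91). H2-Aa was most like H2-Eb1 (0.97) and H2-Ab1 (0.95), followed by Bag6 (0.75), Sppl2a (0.74) and Tnip2 (0.74), and H2-Ab1 was most like H2-Eb1 (0.96). The chains followed Cd74 less closely, at 0.62 for H2-Aa, 0.71 for H2-Ab1 and 0.66 for H2-Eb1, and the 13 cells rich in chain UMIs are part of these points. H2-DMa stood apart from Cd74 (0.22) and from the chains (0.08 to 0.15), and its nearest genes were Crim1 (0.76), Zfp141 (0.73), Ctso (0.73), Vwa5a (0.70) and Nxpe3 (0.70).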

How the data were processed

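Single-cell RNA-seq tables of 4 libraries, 1 per group, were analysed. The submitters' processing notes list Cell Ranger 4.0.0, R 3.6.1 and Seurat 3.0 with GRCm38.p6 (mm10), without settings, and how doublets were handled was not found in any source used. Each expression value deposited by the authors is a natural log: ln(1 + a gene's UMIs per 10000 UMIs of its cell). Undoing this gave whole numbers for 100% of the 17846401 spleen and 8798056 LN values (within 0.001), and every cell matched the total count deposited by the authors. The authors' percent of mitochondrial counts (deposited; below 10 in every cell) was used only for an alternative. Every value column was matched to a library. Clusters are the authors'.

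UMIs were summed per library and cluster and scaled to CPM (Python 3.11.15, NumPy 2.4.6, SciPy 1.17.1, pandas 2.3.3). Levels of 0 UMIs allow up to 3 counts. Ratios carry exact conditional Poisson intervals. The rule of size asked for 5 CPM in a library, 1.5-fold (genotype) or 2-fold (tissue) and an interval clear of equality; it was tested on simulated data. Cells were thinned to 2000 UMIs to compare shares. Named genes are the members, the genes of 5 pathway lists at 5 CPM or by UMI count, the B cell and dendritic cell lists, and for each member the 5 genes most alike. Some listed genes are not reported here. Members and lists were chosen with earlier results of these data known. Alternatives changed the scaling, the cells used, the weights and the minimum level.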

Additional observations from a re-analysis of the deposited data

Results flagged for a closer look

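The 5 genes had log2 ratios of ICOS FC over ICOS WT of opposite sign in LN and spleen, so that the only library pair of each tissue moved its own way. The ratio in LN and in spleen was 0.19 and -0.12 for Cd74, 0.16 and -0.68 for H2-Aa, 0.11 and -0.63 for H2-Ab1, 0.03 and -0.51 for H2-Eb1, and 0.10 and -0.03 for H2-DMa. With 1 library per group the difference between tissues was not tested, and the counting intervals of the 3 chains in LN and of H2-DMa in both tissues span 0. Without the cells with 10 or more chain UMIs, H2-Eb1 stood at 0.77 (0.28 to 1.27) in LN and 0.69 (-0.01 to 1.42) in spleen, and H2-Ab1 at 0.0075 (-0.42 to 0.44) in LN and 0.10 (-0.59 to 0.79) in spleen.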

How the results depend on the processing

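No paired analysis was possible because each group is 1 library, and for the same reason no replicate could be left out. Added after the data were seen were the settings without cells with 10 or more chain UMIs, without cells with a UMI of the 11 B cell markers, without shared barcodes, and cells with a Foxp3 UMI but under 10 chain UMIs. Scaling by the median of ratios shifts all genes by 0.12 (ICOS FC) and 0.13 (ICOS WT) between tissues. Equal weights for clusters and means of cells' CPM carry no interval, and equal weights were not run between tissues. The causes of the changes below were not tested.

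Members called in ICOS FC over ICOS WT numbered 0 in LN, and 3 (all lower) without the 5% of cells with most UMIs and with equal cluster weights, 3 (all higher) with cells under 5% mitochondrial counts, with Foxp3 cells and without clusters 6 and 7, and 1 without cells rich in chain UMIs (H2-Eb1, higher), without shared barcodes (H2-Ab1, lower) and in Foxp3 cells without cells rich in chain UMIs (H2-Eb1, higher). In spleen they numbered 0, and 2 (lower) without ribosomal and mitochondrial genes in the total, with cells under 5% mitochondrial counts and with no minimum level, 3 (higher) with Foxp3 cells, 1 (lower) without cluster 4 and 3 (lower) with equal cluster weights. The summed members' log2 ratio was 0.16 in LN, and 0.031 without the 5% deepest cells, 0.31 with cells under 5% mitochondrial counts, 0.48 in Foxp3 cells, 0.31 without clusters 6 and 7, -0.0024 without shared barcodes and -0.62 with equal cluster weights. In spleen it was -0.13, and -0.050 thinned, 0.039 without the deepest cells, 0.028 without Cd79a cells, 0.017 without any B cell marker, 0.48 in Foxp3 cells, -0.053 without cells rich in chain UMIs, 0.058 without the 11 markers, 0.21 in Foxp3 cells without cells rich in chain UMIs and -0.50 with equal cluster weights.

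For LN over spleen, 4 members were called in the ICOS FC libraries and 1 at a minimum of 20 CPM. In the ICOS WT libraries 3 were called, and 1 at 20 CPM, with cells under 5% mitochondrial counts and without LN clusters 6 and 7 and spleen cluster 4; H2-Eb1 reversed to -0.19 and -0.059 in the last 2 settings. The summed ratio of the ICOS FC libraries was 1.33, and 1.21 with median-of-ratios scaling, 1.17 without ribosomal and mitochondrial genes in the total, 1.16 thinned, 1.48 with cells under 5% mitochondrial counts, 1.48 without any B cell marker, 1.07 in Foxp3 cells, 1.23 without the 3 clusters, 1.42 without the 11 markers, 1.22 without shared barcodes and 0.99 in Foxp3 cells without cells rich in chain UMIs. That of the ICOS WT libraries was 1.04, and 0.91, 0.86 and 1.16 with median-of-ratios scaling, without ribosomal and mitochondrial genes and as a mean over cells, 1.30 without the deepest cells, 1.24 without Cd79a cells, 1.39 without any B cell marker, 0.75 without the 3 clusters and 1.27 without the 11 markers. H2-DMa was the steadiest: between genotypes its ratio moved beyond its interval in 0 of 15 settings in spleen and 1 of 15 in LN, where Cd74 did so in 5 of 15 in each tissue. Chain counts of 28 to 47 UMIs in spleen outside the richest cells limit what can be resolved there.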

Other observations

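H2-DMa did not keep one direction between cells with and without a Foxp3 UMI. With the cells rich in chain UMIs included, it stood in LN at 36.5 CPM (ICOS FC) and 33.6 CPM (ICOS WT) in cells with a Foxp3 UMI, and at 42.1 CPM (ICOS FC) and 39.4 CPM (ICOS WT) in cells without. In spleen it stood at 37.9 CPM (ICOS FC) and 35.5 CPM (ICOS WT) in cells with a Foxp3 UMI, and at 33.0 CPM (ICOS FC) and 34.6 CPM (ICOS WT) in cells without. Cd74 was higher in cells with a Foxp3 UMI in every library, as given above.

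Among the 13 cells rich in chain UMIs, a spleen ICOS FC cell of cluster 1 with 3346 UMIs held 21 chain UMIs, 13 Cd74 UMIs, 24 Cst3 UMIs and 0 Cd79a UMIs. A spleen ICOS FC cell of cluster 2 with 5674 UMIs held 28 chain UMIs and 49 Cd74 UMIs but 0 UMIs of Cd3e, Foxp3 and Cd79a. These values were picked after they were seen and describe single droplets.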
